A study of Homo sapiens with 8 samples.

Results

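The genes described here encode the PAR polarity complex and its close partners: the scaffold proteins PARD6A, PARD6B, PARD6G and PARD3, the atypical protein kinases C PRKCI and PRKCZ, and the polarity proteins LLGL1, LLGL2, SCRIB and CRB3. They were chosen by name: every probe set that the platform annotation gives to one of these 10 genes was taken. This gave 23 of the 54613 probe sets tested, of which 22 name 1 of the 10 genes alone and 1 names LLGL1 together with FLII, and the 10 genes stand among 19777 genes with a probe set of their own. The arrays measured total RNA of MDA-MB-231, an established human cell line derived from metastatic breast cancer. All 8 cultures carried a retroviral hairpin RNA against GFP, which serves as the control hairpin of the series, and all were kept without serum for 24 h. Of these, 4 then received TGFβ for 3 h at a dose that the labels give as 5 µg/ml, a unit far above the nanogram range customary for this cytokine, and 4 were left untreated. The series asks about the joint action of TGFβ and mutant p53, and arrays of cells depleted of p53 were not analysed here. Each group has replicates A to D, which the labels call biological without saying whether the cultures were separate, so p-values cover the spread among these 8 arrays, which may be technical.

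In epithelial cells the PAR complex marks the apical side: PARD6 holds an atypical protein kinase C, binds PARD3 and the active form of the small GTPase CDC42, and thereby places the kinase at the apical junctions. The kinase keeps LLGL proteins and the SCRIB module at the basolateral side by phosphorylation, and CRB3 anchors PARD6 at the apical membrane. PARD6A also binds TGFβ receptors, and in mouse mammary epithelial cells the type II receptor phosphorylates it, after which the ubiquitin ligase SMURF1 is recruited and the GTPase RHOA is degraded at junctions.

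Signals are given on the log2 scale of RMA, and array medians lay between 4.62 and 4.66. RMA gives no detection call, so a signal below that median cannot be told from background. TGFβ replicate A had an excess of signal at the 3-prime over the 5-prime control probe set of ACTB (1.68, log2, against 0.63 to 0.78 on the other TGFβ arrays and 0.67 to 0.89 on the untreated arrays). Among markers of the line VIM had a mean signal of 13.65 in TGFβ-treated and 13.64 in untreated cells, whereas the progesterone receptor PGR lay at 3.26 and 3.12. KRT19, at 11.42 and 11.47, and EPCAM, at 8.33 and 8.39, are epithelial markers that were listed as low for this check but were not low here. GATA3, at 7.33 and 7.57, ERBB2, at 7.09 and 7.21, and ESR1, at 5.83 and 5.76, were listed as low too but lay above the array medians. Among blood and stromal markers, not expected in a cell line, PECAM1 stood at 7.16 and 7.59 and PDGFRB at 5.83 and 5.65. The mean signals of PTPRC and DCN lay below the array medians. Of 9 known early targets of TGFβ 6 rose, none fell and 3 did not pass, and 7 rose with the replicate letter as a block. The number that rose was 3 when TGFβ replicate D or 1 of untreated replicates C and D was left out.

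PARD6B fell after TGFβ and was the only one of the 10 genes with a probe set that passed the test. Its brightest probe set, 235165_at, had signals of 6.35, 5.50, 5.22 and 5.26 in TGFβ-treated replicates A, B, C and D, against 6.96, 6.83, 7.09 and 7.13 in untreated replicates A, B, C and D. Every TGFβ array lay below every untreated array, and TGFβ replicate A, the array with the 3-prime excess, lay closest to the untreated cells. The means were 5.58 ± 0.53 in TGFβ-treated and 7.0 ± 0.14 in untreated cells (SD, n = 4 each). The log2 fold change was -1.42 ± 0.22 SE with a 95% interval of -1.92 to -0.93, which places untreated cells 2.68-fold higher (adjusted p = 0.0365, limma over all probe sets with a threshold of 0.05; adjusted p = 0.0178 when 1 probe set stood for each gene). In RNA of whole cultures, fewer cells that carry a transcript and less of it per cell cannot be told apart.

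The fall of PARD6B was seen within each replicate letter, but its call was not stable when single arrays were left out. Between same-letter cultures the log2 difference, TGFβ minus untreated, was -0.60 for A, -1.33 for B, -1.88 for C and -1.88 for D. With the letter as a block the adjusted p was 0.00803. Without TGFβ replicate A the log2 fold change was -1.68 (adjusted p = 0.000528). Leaving out any other single array kept it between -1.48 and -1.30, but the adjusted p over all probe sets then missed the threshold. It was 0.0913, 0.0723, 0.156 and 0.152 without untreated replicates A, B, C and D. Without TGFβ replicates B, C and D it was 0.0951, 0.111 and 0.138. When 1 probe set stood for each gene, the call passed in 3 of 8 fits. The adjusted p was then 0.000181 without TGFβ replicate A, and 0.0456 and 0.032 without untreated replicates A and B. Without any other array it was 0.0527 to 0.0909. An exact permutation test of this probe set alone gave p = 0.0286, the smallest value that 4 against 4 arrays allow (two-sided).

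The other probe sets annotated to PARD6B had low signals without a difference that passed. Probe set 211907_s_at had 3.01, 3.00, 2.87 and 3.03 in TGFβ-treated replicates A to D, against 3.00, 2.97, 2.94 and 3.13 in the untreated ones. Probe set 214827_at had 2.76, 2.81, 2.93 and 3.07 in TGFβ-treated replicates A to D, against 2.98, 2.32, 2.58 and 2.79 in the untreated ones. Both stayed below the array median on all 8 arrays, their groups overlapped, and their log2 fold changes of -0.03 and 0.22 did not pass (adjusted p = 0.967 and 0.797). The fall of PARD6B was therefore measured by 1 of its 3 probe sets.

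PARD6A, the family member whose protein is known as a substrate of the TGFβ receptor, showed no such shift in its transcript. Its probe set 205245_at had 6.81, 6.56, 6.89 and 6.73 in TGFβ-treated replicates A to D, against 6.84, 6.58, 6.91 and 6.77 in untreated replicates A to D. The groups overlapped almost completely, and each treated culture lay within 0.04 of the untreated culture of its letter while the letters differed by more. The log2 fold change was -0.03 ± 0.11 SE with a 95% interval of -0.26 to 0.21 (adjusted p = 0.981).

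PARD6G, the remaining PARD6 scaffold, had low signals in both groups. Its brightest probe set, 227204_at, had 4.95, 4.93, 4.70 and 4.98 in TGFβ-treated replicates A to D, against 5.03, 4.89, 4.90 and 5.06 in untreated replicates A to D, close above the array median. Probe set 224538_s_at had 4.50, 4.16, 4.35 and 4.57 in TGFβ-treated replicates A to D, against 4.59, 4.23, 4.20 and 4.26 in the untreated ones, and 232132_at had 2.55, 2.33, 2.63 and 2.67, against 2.56, 2.43, 2.55 and 2.56. These last probe sets were below the array median on every array, and in all 3 probe sets of PARD6G the groups overlapped. Log2 fold changes were -0.08, 0.08 and 0.02, with 95% intervals that together spanned -0.29 to 0.35.

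**Figure D1:**
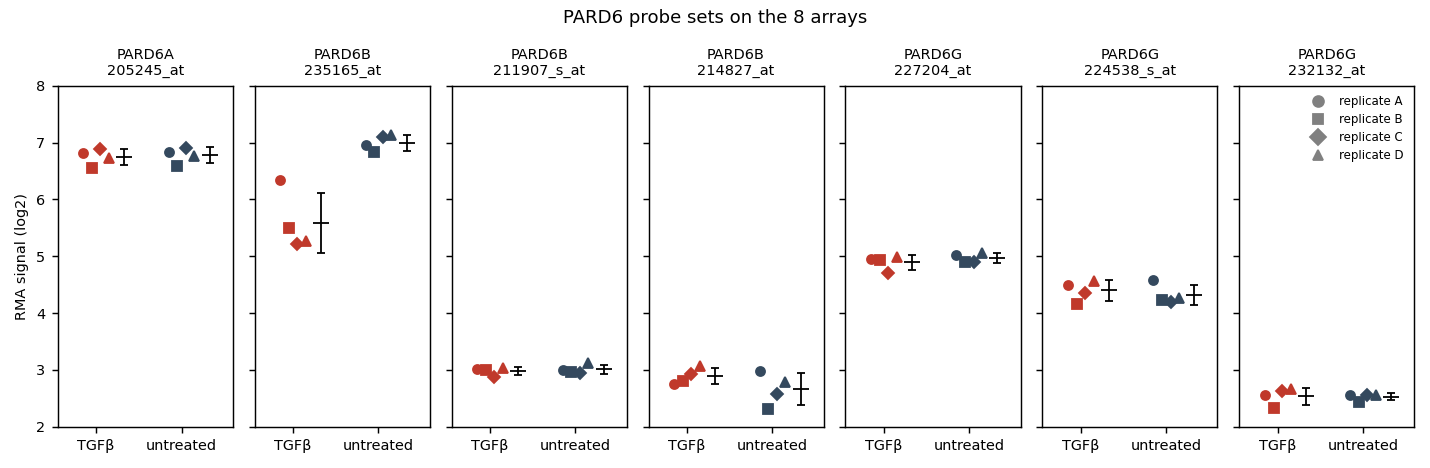
Signals (log2 RMA, vertical axis) of the 7 PARD6 probe sets on each array, with TGFβ-treated arrays in red on the left and untreated arrays in blue on the right of each panel; marker shapes give the replicate letter, and the bar is the mean ± SD of 4 arrays. Only in PARD6B 235165_at do the groups separate, at 5.22 to 6.35 with TGFβ and 6.83 to 7.13 without.

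At the brightest probe sets PARD6B fell, while PARD6A and PARD6G had no shift that passed. The 2 comparisons below were run with earlier results known and largely restate the fall of PARD6B. PARD6G lay close above the array median, which limits what its signal says of its transcript. The log2 signal of PARD6B minus that of PARD6A, each at its brightest probe set, changed by -1.39 with TGFβ, and that of PARD6B minus PARD6G by -1.34 (exact permutation test, two-sided, p = 0.0286 each, adjusted p = 0.0286 over the 2 comparisons, and 0.0286 is the smallest value the design allows). Both differences were lower with TGFβ in 4 of 4 letter pairs, between -1.86 and -0.57 for PARD6A and between -1.80 and -0.52 for PARD6G. Exact sign flips within letters gave p = 0.125 for each, the smallest that 4 pairs can give. With 1 untreated array left out, whichever it was, the adjusted p was 0.0571.

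PARD3, the scaffold that brings PARD6 and the kinase to junctions, had 4 probe sets that did not move together. Its brightest, 210094_s_at, had 8.48, 8.13, 7.93 and 8.03 in TGFβ-treated replicates A to D, against 8.32, 7.83, 8.05 and 7.83 in untreated replicates A to D, with overlapping groups. The log2 fold change was 0.13 ± 0.15 SE (95% interval -0.20 to 0.46), and 221526_x_at had 0.07. Probe set 221527_s_at was lower with TGFβ in 4 of 4 letter pairs, and its log2 fold change of -0.25 ± 0.16 SE missed the threshold (adjusted p = 0.806, or 0.245 with the letter as a block). Probe set 221280_s_at, at -0.10, was lower in 3 of 4 pairs.

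The atypical kinases did not pass either. PRKCI, the iota isoform, had signals of 9.86, 10.27, 9.29 and 9.46 at 209678_s_at in TGFβ-treated replicates A to D, against 9.94, 9.74, 9.66 and 9.18 in untreated replicates A to D. These values overlapped, and the log2 fold change of 0.09 ± 0.22 SE had one of the widest intervals of the members, -0.41 to 0.58. Probe set 213518_at had -0.09, and the dim 209677_at had -0.33 ± 0.18 SE, lower in 4 of 4 letter pairs (adjusted p = 0.761; 0.162 with the block). PRKCZ, the zeta isoform, had 6.71, 6.0, 6.38 and 6.14 in TGFβ-treated replicates A to D, against 6.41, 6.12, 6.08 and 6.23 in untreated replicates A to D. Its groups overlapped, and its log2 fold change was 0.10 (95% interval -0.24 to 0.43).

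The basolateral members LLGL1, LLGL2 and SCRIB stayed within their replicate spread. LLGL1, a target of the atypical kinase, had 7.62, 7.57, 8.11 and 7.69 at 236594_at in TGFβ-treated replicates A to D, against 7.58, 7.78, 7.5 and 7.92 in untreated replicates A to D. Its 3 probe sets had log2 fold changes of 0.05, 0.05 and 0.06, and the probe set shared with FLII had 0.03. LLGL2, its paralog, had -0.04 at 203713_s_at and 0.03 at 1554006_a_at, with 95% intervals that together spanned -0.29 to 0.33. SCRIB, the scaffold of the basolateral module, had 8.40, 7.80, 8.21 and 8.09 in TGFβ-treated replicates A to D, against 8.23, 7.88, 8.0 and 7.97 in untreated replicates A to D. It was higher in 3 of 4 letter pairs at a log2 fold change of 0.10 (95% interval -0.19 to 0.40), without passing.

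CRB3, the short apical Crumbs protein of epithelia, had the largest positive difference among the brightest probe sets of the 10 genes and did not pass. Its signals were 6.55, 6.55, 6.64 and 6.48 in TGFβ-treated replicates A to D, against 6.60, 6.43, 6.38 and 6.16 in untreated replicates A to D. The untreated cultures spread more widely (SD 0.18) than the treated ones (SD 0.07), and untreated replicate A reached into the treated range. The log2 fold change was 0.17 ± 0.11 SE with a 95% interval of -0.07 to 0.40 (adjusted p = 0.798).

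Of the 23 polarity probe sets 1 passed the test, PARD6B 235165_at, where 0.256% of all probe sets passed. With the letter as a block the count was again 1, where 1.75% of all probe sets passed. Groups without overlap were seen in the same 1 probe set, where 4.75% of all probe sets had such groups. The median log2 fold change of the 22 probe sets that name 1 gene was 0.04, beside 0.01 over all probe sets, and 13 of them were positive and 9 negative. For the 21 other than PARD6B 235165_at, log2 fold changes lay between -0.33 and 0.22 and none had an unadjusted p under 0.05 (limma), as 7.44% of all probe sets had, while 2 did with the letter as a block, as 13.2% of all probe sets did. Their 95% intervals lay within -0.74 and 0.58. For the 4 of them below the array median on all arrays, 2 of PARD6B and 2 of PARD6G, such an interval describes the signal only and sets no limit on a change of the transcript. PARD6B 235165_at had the 6th lowest log2 fold change of all 54613 probe sets.

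**Figure D2:**
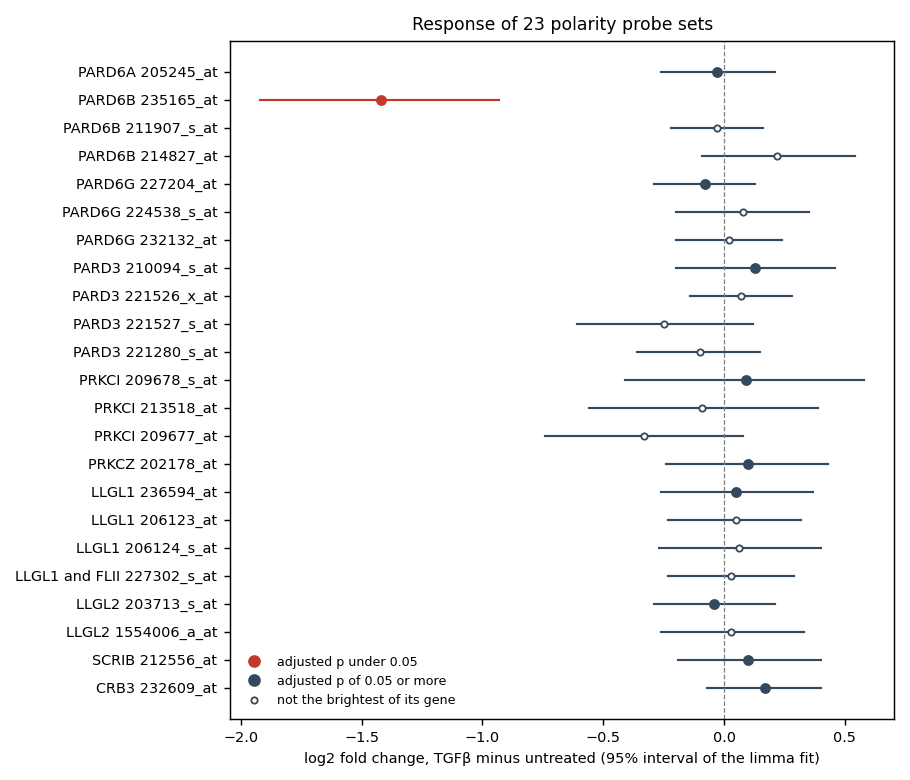
Log2 fold change, TGFβ minus untreated (horizontal axis), with the 95% interval of the limma fit for the 23 polarity probe sets; filled points are the brightest probe set of a gene, red marks an adjusted p under 0.05. PARD6B 235165_at stands at -1.42, and the intervals of all others cross 0.

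**Figure D3:**
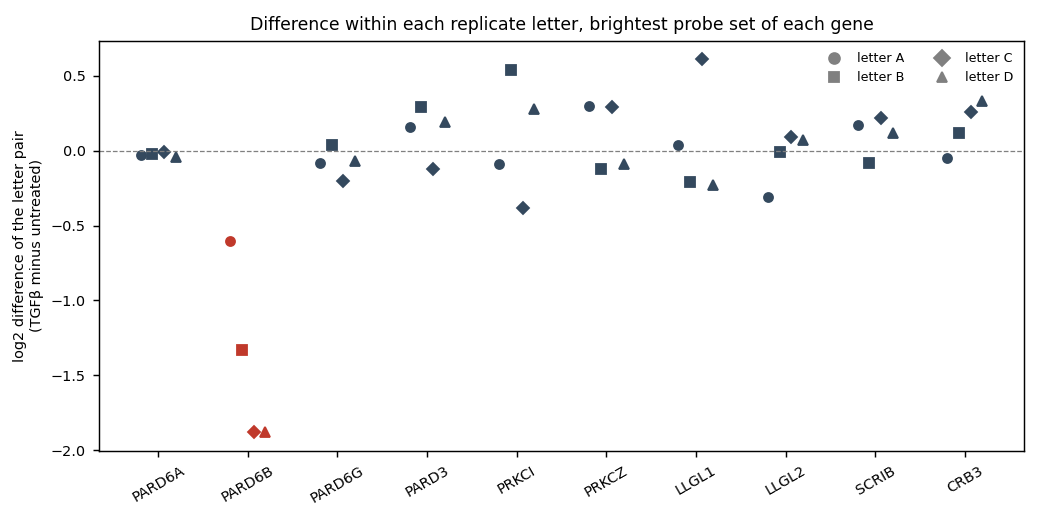
Log2 difference between the TGFβ-treated and the untreated culture of each replicate letter (vertical axis) at the brightest probe set of the 10 genes; marker shapes give the letter. The PARD6B pairs, in red, lie between -1.88 and -0.60, while those of PARD6A lie between -0.04 and -0.01.

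The genes whose levels over the 8 arrays were most like those of PARD6B were PANK1, a pantothenate kinase of coenzyme A synthesis, HNMT, which inactivates histamine, the cilium-associated kinase CILK1, the zinc finger gene ZNF823 and LTA4H, the leukotriene A4 hydrolase. Pearson's r to PARD6B was 0.99, 0.98, 0.98, 0.98 and 0.97 over the 8 arrays (Spearman's rho 0.95, 0.88, 0.98, 0.88 and 0.90), as the highest among 9420 genes with a mean signal of at least 6. After subtraction of each group's mean, r was 0.94, 0.90, 0.89, 0.86 and 0.81, a description only, since the genes were picked by r over the same arrays. The deviations of PARD6B come mostly from TGFβ replicate A, the array with the 3-prime excess, and its part in these values was not tested. Their log2 fold changes were smaller than that of PARD6B, at -0.65, -0.33, -0.46, -0.40 and -0.21, and none passed without the block. PANK1, CILK1 and ZNF823 passed with it (adjusted p = 0.0132, 0.0255 and 0.0333). For PARD6A the nearest genes were GEMIN6, CARD8, PDHA1, WDR62 and PNKD with r from 0.97 to 0.98 and log2 fold changes from -0.11 to 0.00. For PARD6G they were SRGN, MED14, KNTC1, KNL1 and AHCYL2 with r from 0.82 to 0.85. These values describe 8 arrays that share letters and treatment.

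Around the complex, most other polarity genes did not pass. The tests of these genes used the brightest probe set of each gene, and 0.576% of all genes passed, or 3.56% with the letter as a block. Of 25 other PAR genes and partners 1 rose, none fell and 24 did not pass (median log2 fold change -0.09, beside 0.01 over all genes). The gene that rose was TIAM2, an exchange factor that activates RAC1. Its signals were 7.30, 7.59, 7.28 and 7.25 in TGFβ-treated replicates A to D, against 5.75, 6.15, 5.89 and 6.04 in untreated replicates A to D. Every treated array lay above every untreated one, and the log2 fold change was 1.40 ± 0.12 SE (adjusted p = 0.000737), a call that held without any single array. Its other probe sets, 219950_s_at and 227866_at, had -0.02 and -0.22. The call was lost when the probe sets of a gene were averaged, and when those with the suffixes _s_at and _x_at, among them 222942_s_at, were left out. With the block TIAM1, the related exchange factor that binds PARD3, fell by 0.39 on the log2 scale at 213135_at (SE 0.08, adjusted p = 0.0267). Without the block the SE was 0.14 and the adjusted p 0.439. The other TIAM1 probe set, 206409_at, lay above the array median on all 8 arrays and had -0.05 (adjusted p = 0.891 with the block, over all probe sets). NUMB, a cell fate determinant phosphorylated by the atypical kinase, fell by 0.77 with the block (SE 0.16, adjusted p = 0.0279). Without the block the SE was 0.29 and the adjusted p 0.459. Its letter differences were uneven, at -1.11, -0.69, -0.07 and -1.21 for A to D. The pairing within C and within D, which these differences and the block use, was not established. TGFβ replicates C and D, at 4.58 and 4.11, lay below the array median, so the difference of 0.77 does not give the fold change of the transcript.

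The list for the route from the TGFβ receptor over PARD6 to RHOA had 10 measured genes, of which none passed with limma. This list also held SMAD2, SMAD3 and SMAD4, which are not part of the route over PARD6 described above. An unadjusted p under 0.05 was found for 6 of the 10 genes, and for 8.14% of all genes. With the letter as a block 4 passed, as 3.56% of all genes did. SMURF2 was 1 of the 6, with a log2 fold change of 0.36 (limma, unadjusted p = 0.00801, adjusted p = 0.291, or 0.0623 with the block). SMAD2 was another, at -0.25 (limma, unadjusted p = 0.00981, adjusted p = 0.321, or 0.144 with the block). SMURF1, the ubiquitin ligase recruited by phosphorylated PARD6A, had 8.19, 8.74, 8.58 and 8.61 in TGFβ-treated replicates A to D, against 7.72, 8.22, 7.82 and 8.06 in untreated replicates A to D. It was higher in 4 of 4 letter pairs with little overlap between the groups, and its log2 fold change was 0.58 ± 0.15 SE (adjusted p = 0.157; 0.00485 with the block). All 5 of its probe sets had a positive log2 fold change, but it passed in 1 of 8 fits with a single array left out. The adjusted p was 0.0419 without TGFβ replicate A and 0.134 to 0.433 without any other array. TGFBR2, the type II receptor that phosphorylates PARD6A, had 9.89, 10.35, 10.24 and 10.29 in TGFβ-treated replicates A to D, against 10.37, 10.91, 10.68 and 10.84 in untreated replicates A to D. All treated arrays lay below all untreated ones, and the log2 fold change was -0.51 (SE 0.14; adjusted p = 0.223, or 0.00678 with the block).

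TGFBR3, a co-receptor, changed by -1.12 ± 0.12 SE on the log2 scale with the block (adjusted p = 0.000541), and without it the SE was 0.28 and the adjusted p 0.164. OCLN, the tight junction protein that holds TGFβ receptors at junctions, had -0.41 ± 0.17 SE and was lower in 4 of 4 letter pairs (adjusted p = 0.535; 0.0472 with the block). RHOA, whose protein is the end of this route, had a log2 fold change of -0.09 in its transcript (adjusted p = 0.896), and TGFBR1 had -0.11 (adjusted p = 0.96). The median log2 fold change of the 10 genes, SMAD2, SMAD3 and SMAD4 among them, was -0.16.

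Among Crumbs complex genes, which share the apical side with CRB3, none of 12 passed with or without the block, and none had an unadjusted p under 0.05 (limma). The genes with the smallest p were PALS1, the adaptor between Crumbs and PATJ, at -0.33 (adjusted p = 0.671), and AMOTL1, an angiomotin, at -0.17 (adjusted p = 0.81). Of 14 genes of the Scribble module and its relatives none passed in either fit and 2 had an unadjusted p under 0.05, DLG3, a membrane-associated guanylate kinase, at -0.35 (adjusted p = 0.41) and LRRC1, a relative of SCRIB, at -0.25 (adjusted p = 0.608). Of 11 other protein kinase C and related kinase genes none passed in either fit and none had an unadjusted p under 0.05 (limma); PRKD2, a protein kinase D, at -0.18 (adjusted p = 0.827) and PRKCE, the epsilon isoform, at 0.25 (adjusted p = 0.845) had the smallest p.

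Of 17 apical junction genes 1 rose, none fell and 16 did not pass. CDH1, the epithelial cadherin of adherens junctions, had 5.22, 4.98, 4.92 and 4.78 in TGFβ-treated replicates A to D, against 4.19, 3.93, 4.05 and 4.14 in untreated replicates A to D. The groups did not overlap, and the signals differed by 0.90 ± 0.11 SE on the log2 scale (adjusted p = 0.00579). Every untreated value lay below the array median, where a signal cannot be told from background, so this difference does not give the fold change of the transcript. Its other probe set, 201130_s_at, had 0.07 and did not pass. The call held without any single array. It was lost when probe sets were averaged by gene, and it could not be made among the upper 60% of signals or without the _s_at and _x_at probe sets, since 201131_s_at is then left out. CLDN4, a claudin of tight junctions, had 0.46 ± 0.13 SE at 201428_at (adjusted p = 0.209, or 0.0184 with the block). The other CLDN4 probe set, 1569421_at, lay above the array median on all 8 arrays and had 0.12 (adjusted p = 0.667 with the block, over all probe sets).

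**Figure D4:**
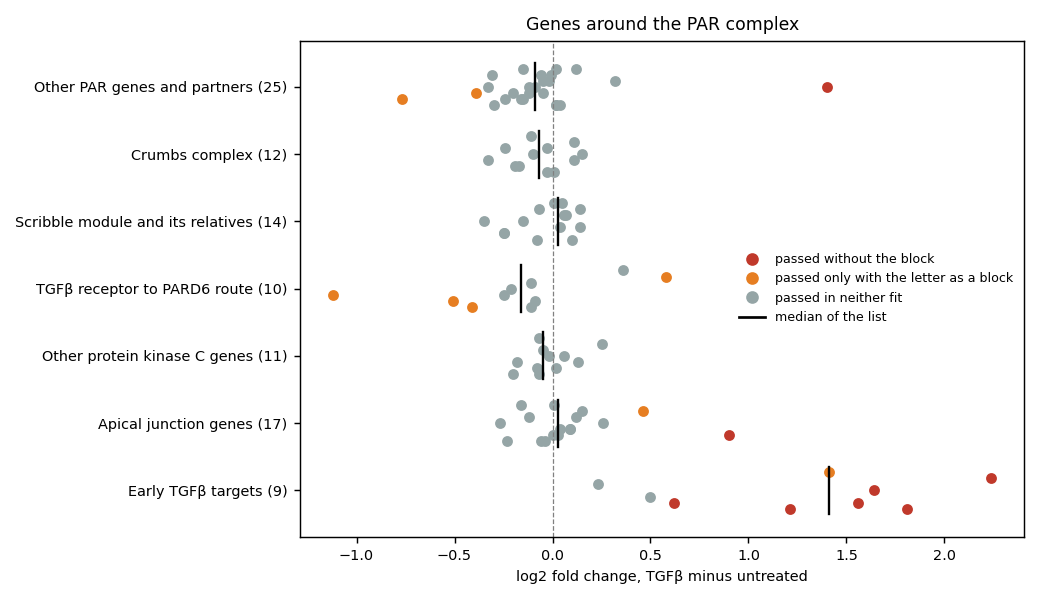
Log2 fold change, TGFβ minus untreated (horizontal axis), of the genes around the PAR complex by list, with the number measured in brackets and the list median as a black line; red passed without the block, orange only with the replicate letter as a block, grey in neither fit. TIAM2, at 1.40, and CDH1, at 0.90, are the red points outside the early TGFβ targets.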

How the data were processed

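Deposited were log2 signals, 1 for each probe set on each array. The submitters' processing notes name RMA; its version, the set of arrays it was run on and a genome build have no entry in the sources used here. The log2 base was inferred from RMA and the range of the values. Of 54675 probe sets 62 are controls and were left out. Gene names come from the platform annotation of 2016, in which 41091 probe sets name 1 gene, 1801 several and 11721 none. For gene lists the probe set with the highest mean signal stood for its gene. Tests used limma 3.58.1 under R 4.3.3 for TGFβ minus untreated, two-sided and without a block, and p-values were adjusted by Benjamini-Hochberg over all 54613 probe sets or 19777 genes. The code was checked on simulated data. Plots used matplotlib 3.10.9 (Python 3.11.15).

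Members, lists and tests were chosen with earlier results of these data known. Every member probe set is named, with the 5 genes most correlated to each PARD6 gene and, from each list, the genes that passed, or the 2 with the smallest p. TIAM1, NUMB, SMURF1, SMURF2, SMAD2, TGFBR1, TGFBR2, TGFBR3, OCLN, RHOA, CLDN4 and the marker genes were added after their values were seen or for their role. Of 104 list symbols 98 were measured; the others were not analysed here.

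Deviations from group means correlated by 0.41, 0.59, 0.26 and 0.24 between arrays that share letter A, B, C or D, although TGFβ replicate C correlated with untreated D by 0.27 and TGFβ replicate D with untreated C by 0.28. The letters were used to pair the arrays, by a rule on these correlations, since the labels state no pairing. The correlations set the same-letter arrays apart for A and B. They cannot tell C from D, so the pairing within C and within D was not established. Blocked values and letter pairs use all letters all the same, and the blocked value stands beside the results it changes. Alternatives were the block, the upper 60% of signals, centring, a repeated quantile normalization, a trended, robust prior, other gene summaries and each array left out; the block without each letter was added after seeing the data. The number of arrays limits the precision.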

Additional observations from a re-analysis of the deposited data

Results flagged for a closer look

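In 46 groups of 4 values, 1 array stood far from the other 3 in 3 cases, and chance flags about 1 group in 20. At PARD6B 211907_s_at TGFβ replicate C had 2.87, with the other TGFβ arrays at 3.00 to 3.03. At PARD6G 224538_s_at untreated replicate A had 4.59, with the other untreated arrays at 4.20 to 4.26. At PARD6G 232132_at untreated replicate B had 2.43, with the other untreated arrays at 2.55 to 2.56. All 3 probe sets lay below the array median on every array, and none of their log2 fold changes passed the test.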

How the results depend on the processing

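PARD6B 235165_at kept its direction under every alternative run. Its log2 fold change was -1.68 to -1.30 when single arrays were left out. There it passed in 1 of 8 fits over all probe sets and in 3 of 8 over genes. In the replicate block without letter B or C the log2 fold change was -1.45 and -1.27 and did not pass (adjusted p = 0.0608 and 0.0555). The responses of PARD6B minus PARD6A and minus PARD6G were -1.39 and -1.34 in the paired form, which cannot pass, and -1.63 to -1.22 and -1.58 to -1.20 without single arrays. The count of probe sets that passed was 140, or 954 with the replicate block (1416, 282, 389 and 384 without letters A, B, C and D), and 33 to 240 without single arrays; that of genes was 114, 705 with the block, and 46 to 232. No other polarity probe set passed in any of 283 recomputed values, of which 29 changed sign. With quantile normalization again PARD6A had 0.02, PARD6G 232132_at 0.00 and LLGL2 203713_s_at 0.01. Without single arrays the log2 fold changes that changed sign spanned the following ranges: PARD6A -0.09 to 0.04, PARD6B 211907_s_at -0.06 to 0.01, PARD6G 232132_at -0.02 to 0.09, PRKCI 209678_s_at -0.10 to 0.23 and 213518_at -0.23 to 0.08, PRKCZ -0.04 to 0.20, LLGL1 236594_at -0.07 to 0.13, 206123_at -0.03 to 0.11 and 206124_s_at -0.04 to 0.17, the probe set of LLGL1 and FLII -0.05 to 0.09, and LLGL2 203713_s_at -0.11 to 0.03 and 1554006_a_at -0.04 to 0.15. Of 210 recomputed gene list counts 196 stayed within 1.5 times. The cause of these shifts was not tested; fits without 1 array have fewer samples. Probe sets below the array median limit what can be said of PARD6G and of 2 of the 3 PARD6B probe sets.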

Other observations

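The receptor TGFBR2 had a second probe set, 207334_s_at, that was noticed after its values were seen. It had 4.84, 6.48, 6.59 and 6.59 in TGFβ-treated replicates A to D, against 6.41, 6.99, 7.05 and 7.17 in untreated replicates A to D. TGFβ replicate A, the array with the 3-prime excess, stood lowest there, and untreated replicate A was lowest among the untreated arrays. Its log2 fold change of -0.78 ± 0.36 SE missed the threshold (adjusted p = 0.687, or 0.0692 with the letter as a block). Both probe sets of TGFBR3 were lower with TGFβ, at -1.12 and -1.26, and on both TGFβ replicate A lay closest to the untreated cultures, as it did for PARD6B 235165_at. At TGFBR3 204731_at the treated arrays had 6.66, 5.30, 5.67 and 5.55, against 7.52, 6.84, 6.67 and 7.19 in the untreated ones. Without TGFβ replicate A the log2 fold change of TGFBR3 at its brighter probe set passed (adjusted p = 0.0032), but in the other 7 fits with a single array left out it did not (adjusted p = 0.256 to 0.462).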
